A study of Mus musculus with 6 samples.

Results

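The mitochondrial ribosomal protein genes were taken as every gene whose symbol is Mrpl or Mrps followed by a number and at most 1 letter, and whose value reached 1 or more in 3 or more of the 6 libraries. All 78 listed genes of that form passed, 49 named for the large subunit (Mrpl) and 29 for the small subunit (Mrps), out of 20136 genes tested and 52550 listed. Mitochondria keep their own ribosome, which translates the few messages of the mitochondrial genome into core subunits of the respiratory chain and ATP synthase. Its RNAs come from mitochondrial DNA, while all its proteins are encoded in the nucleus, made in the cytosol and imported. The large subunit joins amino acids and holds the exit tunnel, the small subunit binds and decodes the message, and mammals have added many proteins that bacterial ribosomes lack.

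Messenger RNA was sequenced from mouse bone marrow hematopoietic stem cells, as the labels call them, to find genes that depend on Ppp2ca, the main catalytic subunit gene of protein phosphatase 2A. The 3 wild-type (WT) libraries came from mice labelled Ppp2caf/f, whose Ppp2ca alleles are floxed, with no Cre recombinase named. The 3 knockout (KO) libraries came from mice labelled VAV1crePpp2caf/f, which carry the same floxed alleles and a Cre under Vav1 control, a driver active across blood cells and not in stem cells alone. The labels give no age, sex or strain background, and no surface markers used for isolation. The labels do not say that libraries of a group came from separate animals, so p-values measure only the spread between these libraries.

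Values are reads per gene divided by 1 size factor per library and are called normalised reads here. Ppp2ca stood at 32909, 33451 and 33169 normalised reads in WT and at 23728, 22419 and 24046 in KO, so the groups did not overlap and KO held 70.5% of the WT level (log2 fold change -0.50, SE 0.07, adjusted p = 0.00268). These are reads over the whole gene, so loss of its floxed part was not measured on its own. The libraries held 37951985 to 58692037 reads over genes. Every member was detected in every library, and the lowest member count was 88 reads. The 37 genes of the mitochondrial genome were listed at 0 in all libraries, so the products translated by this ribosome were not analysed here.

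Of the 78 members, 29 were higher in KO, 0 were lower and 49 did not pass the threshold of adjusted p below 0.05 in limma. At an unadjusted p below 0.05, 43 were higher and 0 lower, but the matching share over all genes was not counted. Of the members, edgeR called 33 higher and DESeq2 38, and both called 0 lower. Over all genes, edgeR called 2075 higher (12.4%) and 2496 lower of 16708, and DESeq2 2408 higher (12.2%) and 2954 lower of 19777. The 29 called are 37.2% of the members, against 10.3% of all genes tested called higher and 13% called lower. The rises were small: the called members stood between 126% and 160% of their WT means, and the median log2 fold change over all 78 members was 0.31, against -0.02 over all genes tested. The difference was above 0 in 71 of 78 members on the deposited scale, and in 57 of 78 with scaling to library totals. In 47 members all 3 KO values lay above all 3 WT values, as in 19.1% of all genes tested, and in 1 member, Mrpl23, all 3 lay below, as in 21.7% of all genes tested. Among the 10060 tested genes whose mean level lay in the members' range, 14.2% were called higher and 16.2% lower, with a median of 0.00.

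Members of both subunits rose. Of the 49 Mrpl genes, 17 were called higher (34.7%), and the median log2 fold change was 0.32. Of the 29 Mrps genes, 12 were called higher (41.4%), with a median of 0.30. The balance of the subunits did not separate the groups: summed Mrps values per 100 of summed Mrpl values were 51.7, 49.4 and 49.5 in WT and 49.1, 50.5 and 49.9 in KO.

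**Figure D1:**
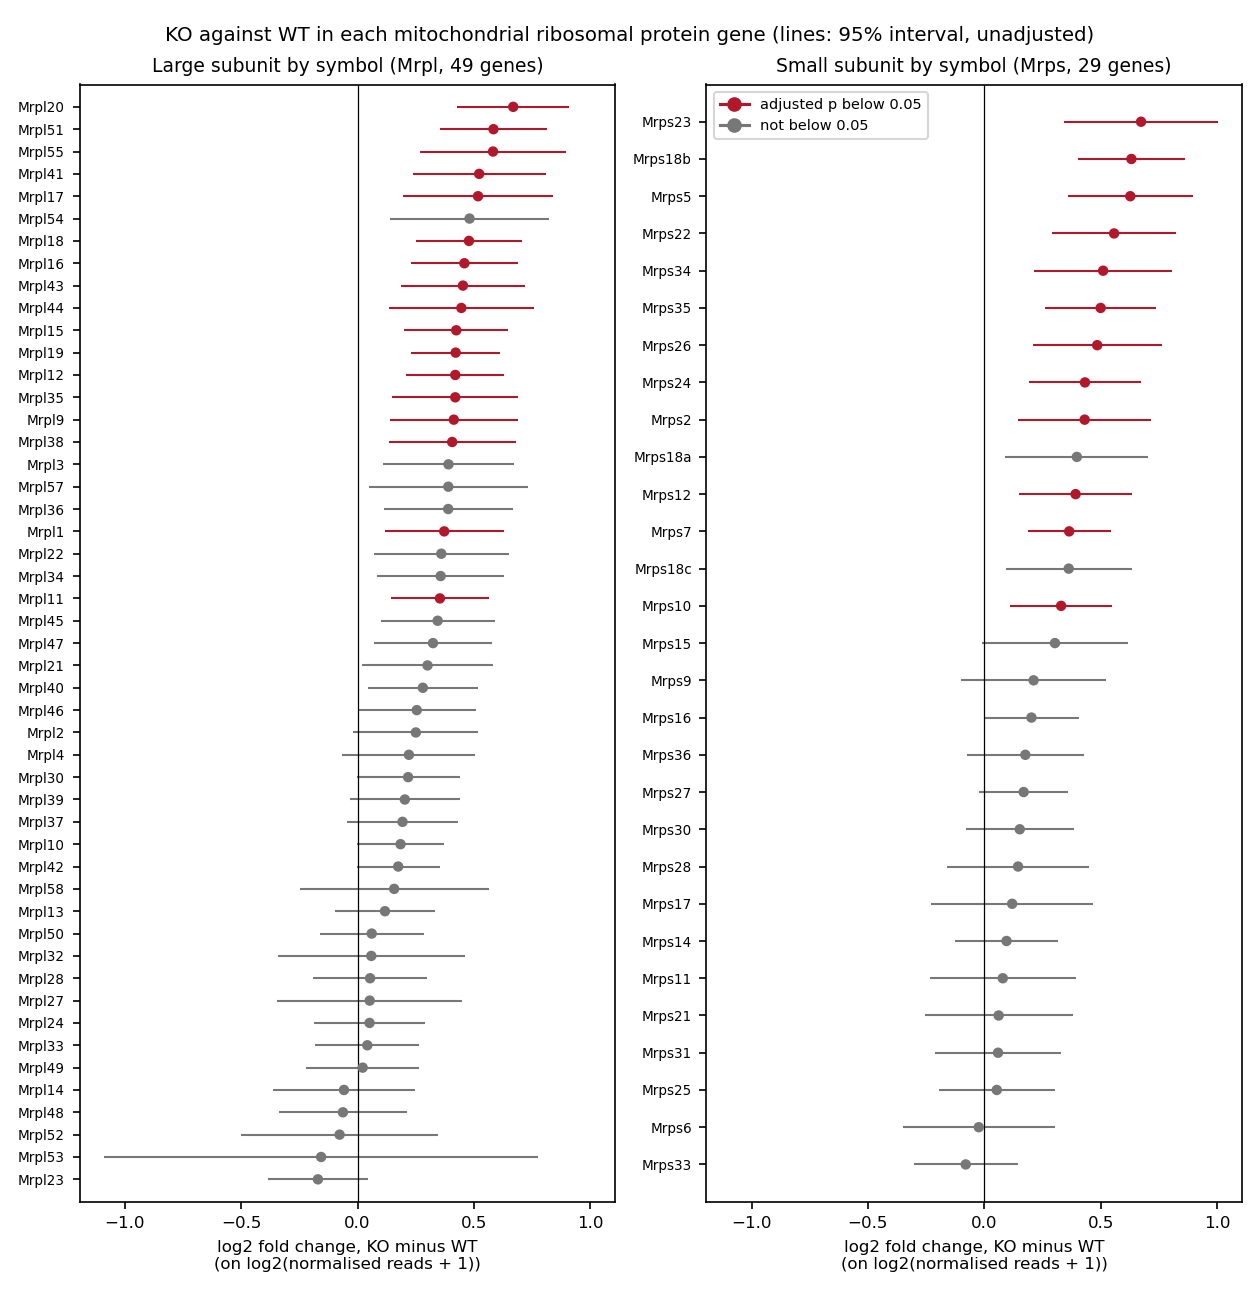
Log2 fold change of KO against WT for each of the 49 Mrpl genes (left) and 29 Mrps genes (right), on the log2(normalised reads + 1) scale. Lines are unadjusted 95% intervals, and red marks the 17 and 12 genes with an adjusted p below 0.05. Nearly all points lie right of 0, and 7 of 78 lie left of it (21 of 78 at or left of it with scaling to totals), none of them red.

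How many members passed depended on the scaling and on single libraries. The deposited values sum to more in KO (4.93e+07 to 5.06e+07) than in WT (4.44e+07 to 4.63e+07), and with every library scaled to the same total 10 members were called higher and 1, Mrpl23, lower, with a member median of 0.17 against -0.16 for all genes. On that scale, calls over all genes were 1337 higher and 3511 lower, or 27.6% higher, against 2069 and 2622, or 44.1% higher, on the deposited scale. The distance between the member median and the median of all genes was 0.34 as deposited and 0.33 after scaling to totals, and 0.19 after quantile normalization. As a share of all reads the members did not separate the groups: they took 5354, 5430 and 5974 CPM in WT and 6444, 5837 and 6220 CPM in KO, where KO replicate 2 lay below WT replicate 3. Without KO replicate 3, 5 members were called higher, and without WT replicate 1, WT replicate 2 or KO replicate 1 the number was 13, 14 or 16, all of them among the 29. Without WT replicate 3 it was 23, of which 19 were among the 29, and without KO replicate 2 it was 30, of which 24 were. Dropping limma's intensity trend gave 5, all among the 29, and library quality weights gave 45, with all 29 and 16 others.

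**Figure D2:**
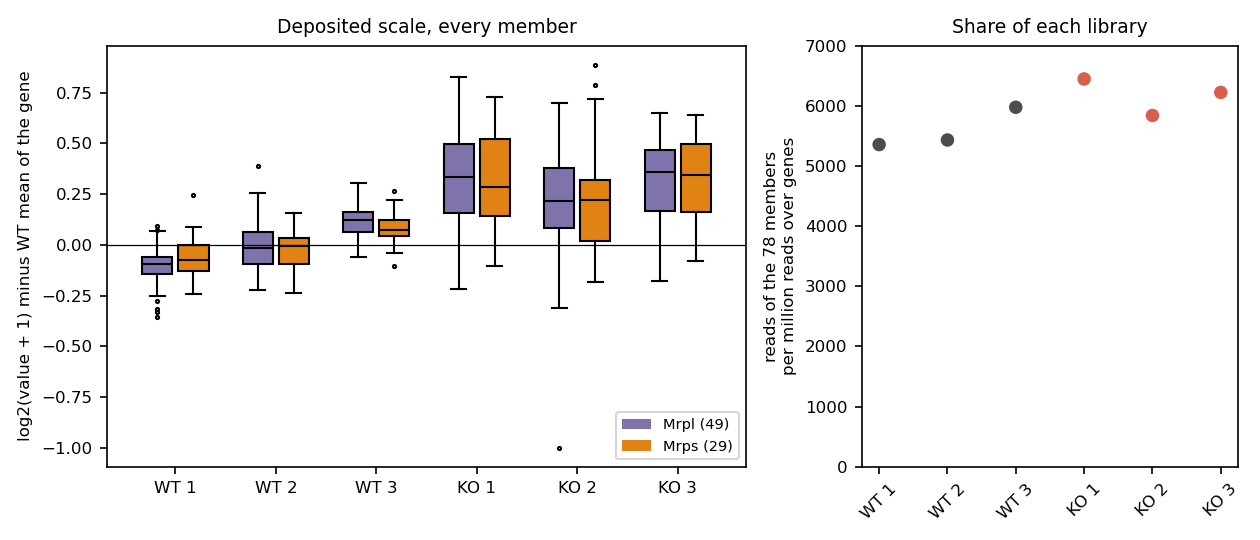
Left, spread over the 49 Mrpl (purple) and 29 Mrps (orange) genes of each library's log2(value + 1) minus the gene's WT mean; boxes span the quartiles with the median inside, whiskers reach the farthest gene within 1.5 box lengths and dots are genes beyond. Right, reads of all 78 members as CPM of reads over genes. On the deposited scale all KO medians lie above all WT medians, with WT replicate 3 the highest of WT and KO replicate 2 the lowest of KO; as a share of reads these 2 libraries cross, at 5974 and 5837.

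Library by library, the median deviation of the members from their WT means was -0.09, -0.01 and 0.11 in WT and 0.33, 0.22 and 0.35 in KO. WT replicate 3 had 72 of 78 members above the WT mean, WT replicate 1 had 11 and WT replicate 2 had 32. The KO libraries had 68, 63 and 72. WT libraries thus also differed among themselves across most members, with WT replicate 3 nearest to KO.

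Nuclear genes for mitochondrial proteins often share a few promoter elements, such as those read by NRF1 and NRF2 (GABP, an ETS factor), both regulators of nuclear genes for mitochondria. RefSeq windows (GRCm38.p6) from 250 bases before to 30 bases after the start were at hand for 69 of the 78 members, and 4 motifs were searched on both strands: NRF1 as GCGCA, any base and GCGC, ETS as CCGGAAG, YY1 as AAGATGGC and the E-box as CACGTG. The NRF1 motif was in 13 member windows (18.8%), against 10.01% of 11590 tested genes with a window. The ETS motif was in 24 (34.8%, against 17.9%), the YY1 motif in 8 (11.6%, against 3.85%) and the E-box in 5 (7.25%, against 10.7%). Split by call, the NRF1 motif was in 5 of 24 called and 8 of 45 uncalled members, the ETS motif in 8 of 24 and 16 of 45, the YY1 motif in 2 of 24 and 6 of 45, and the E-box in 1 of 24 and 4 of 45. No difference between these shares was tested, and GC content was not allowed for. The windows of 5 called members are shown, 5′ to 3′ on the gene's own strand, which is the plus strand for all 5, with the motifs in capitals. All 5 hold a match, so they do not stand for the called members as a whole. Mrpl18, Mrps22, Mrps23, Mrpl43, Mrpl17, Mrps12, Mrpl9 and Mrpl44 also hold a match. The remaining called members with a window, among them Mrps18b, Mrps5 and Mrpl16, hold none of the 4 motifs. Positions count from 1 at the start site, with -1 just before it. Mrpl20 (chr4:155802628-155802907) has an E-box at -33 to -28, Mrpl51 (chr6:125191950-125192229) an ETS motif at -90 to -84, Mrps7 (chr11:115603890-115604169) a YY1 motif at 19 to 26, Mrpl12 (chr11:120484387-120484666) an NRF1 motif on the opposite strand at -81 to -72, and Mrps26 (chr2:130563507-130563786) an ETS motif on the opposite strand at -14 to -8 and 2 overlapping NRF1 motifs at -2 to 8 and 5 to 14.
Mrpl20: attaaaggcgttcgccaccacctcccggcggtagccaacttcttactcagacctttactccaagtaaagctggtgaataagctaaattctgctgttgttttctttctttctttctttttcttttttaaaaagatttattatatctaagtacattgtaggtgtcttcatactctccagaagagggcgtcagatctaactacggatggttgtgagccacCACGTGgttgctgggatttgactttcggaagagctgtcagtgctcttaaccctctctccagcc
Mrpl51: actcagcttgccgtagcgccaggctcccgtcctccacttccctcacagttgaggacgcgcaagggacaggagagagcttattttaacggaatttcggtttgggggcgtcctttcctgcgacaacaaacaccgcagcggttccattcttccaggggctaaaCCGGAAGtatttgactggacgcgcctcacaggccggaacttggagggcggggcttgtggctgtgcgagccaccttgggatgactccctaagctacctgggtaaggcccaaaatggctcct
Mrps7: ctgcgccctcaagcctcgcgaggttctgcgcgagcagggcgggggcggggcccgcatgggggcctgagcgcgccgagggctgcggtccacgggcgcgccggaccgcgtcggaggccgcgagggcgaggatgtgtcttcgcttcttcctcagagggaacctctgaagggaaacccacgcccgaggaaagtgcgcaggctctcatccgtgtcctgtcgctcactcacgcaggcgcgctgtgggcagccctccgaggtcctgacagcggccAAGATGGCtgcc
Mrpl12: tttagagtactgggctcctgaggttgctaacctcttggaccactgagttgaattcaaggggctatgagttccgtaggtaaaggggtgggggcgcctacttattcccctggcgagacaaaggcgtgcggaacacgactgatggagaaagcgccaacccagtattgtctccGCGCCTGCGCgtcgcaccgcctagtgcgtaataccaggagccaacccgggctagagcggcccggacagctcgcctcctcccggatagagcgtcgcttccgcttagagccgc
Mrps26: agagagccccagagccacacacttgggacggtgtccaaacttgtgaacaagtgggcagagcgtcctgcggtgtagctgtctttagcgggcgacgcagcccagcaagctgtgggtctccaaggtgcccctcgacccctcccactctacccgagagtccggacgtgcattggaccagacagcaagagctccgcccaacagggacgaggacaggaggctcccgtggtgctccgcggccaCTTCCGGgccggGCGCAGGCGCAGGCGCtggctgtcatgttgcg
A match is a run of letters and not a measured binding site.

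Among large subunit genes, Mrpl20 had the largest difference. This gene (ENSMUSG00000029066.12, chr4:155802878-155809975, plus strand, GRCm38) encodes a protein with a bacterial homologue that binds ribosomal RNA in the body of the subunit. It stood at 2639, 3126 and 3232 normalised reads in WT and at 4857, 4844 and 4557 in KO. The lowest KO value lay well above the highest WT value, and KO was 158% of WT (log2 fold change 0.67, SE 0.10, adjusted p = 0.00426; 2.42e-06 to 0.0333 over the 19 alternatives). Mrpl51 (ENSMUSG00000030335.6, chr6:125191801-125196269, plus strand) encodes a protein found in mitochondrial ribosomes and not in bacterial ones. It stood at 5048, 5309.9 and 5925 in WT and at 8547, 7381 and 8485 in KO, again without overlap (0.58, SE 0.10, adjusted p = 0.00604; 2.37e-05 to 0.0444 over the alternatives). These 2 were the large subunit genes called higher under every alternative.

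Mrpl19 stood at 4438, 4736 and 5016 in WT and at 6276, 6298 and 6413 in KO (0.42, SE 0.08, adjusted p = 0.00999). Mrpl18, whose protein is the counterpart of a bacterial 5S RNA binder, stood at 6917, 7939 and 8367 in WT and at 10979, 10048 and 11278 in KO (0.48, SE 0.10, adjusted p = 0.0118). Mrpl16 stood at 2536, 3054 and 2898 in WT and at 3971, 3825 and 3840.5 in KO (0.46, SE 0.10, adjusted p = 0.0145). Mrpl19 shares 36% of its exonic bases with Gcfc2 on the opposite strand. In all 3 genes every KO value was above every WT value, and no call stood once KO replicate 3 was left out (adjusted p = 0.0532, 0.0589 and 0.0597) or the intensity trend was dropped (0.0613, 0.069 and 0.0655).

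Mrpl12, which forms the flexible stalk that recruits translation factors and is a homologue of bacterial L7/L12, stood at 5089, 5305 and 5979.8 in WT and at 7357, 6973 and 7539 in KO (0.42, SE 0.09, adjusted p = 0.0147). The groups did not overlap, and the call was lost in 4 alternatives, 1 of them scaling to totals (adjusted p = 0.0576). Mrpl10, the base of the same stalk, stood at 3713, 3730.3 and 3791 in WT and at 4372, 4063 and 4343 in KO, without overlap but with a smaller difference that was not called (0.18, SE 0.08, adjusted p = 0.144). Mrpl11, of the neighbouring centre that activates translation GTPases, was called (2221, 2206 and 2101 against 2918, 2641 and 2791; 0.35, SE 0.09, adjusted p = 0.0282). So was Mrpl1, of the stalk on the opposite side of the subunit (2688, 2609 and 3094 against 3929, 3299.8 and 3633; 0.37, SE 0.11, adjusted p = 0.0452). These calls were weaker: that of Mrpl11 was lost in 8 of the 19 alternatives and that of Mrpl1 in 10, both with scaling to totals (adjusted p = 0.146 and 0.192).

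The other called Mrpl genes were Mrpl15, Mrpl55, Mrpl41, Mrpl43, Mrpl17, Mrpl35, Mrpl9, Mrpl38 and Mrpl44, with log2 fold changes from 0.41 in Mrpl38 to 0.58 in Mrpl55. All of them had KO values above all WT values. Mrpl44, an RNase III-like protein, had the largest adjusted p of these, with 3511, 3616 and 4264 in WT and 6027, 4444 and 5113 in KO (0.45, SE 0.13, adjusted p = 0.0477). Its call was lost in 12 alternatives, and those of the other 8 genes in 5 to 10.

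Close to the threshold but not called were 11 members with an adjusted p below 0.1. The uncalled Mrpl gene with the largest difference was Mrpl54, at 2493, 2645 and 3115 in WT and 4307, 3133 and 4143 in KO (0.48, SE 0.15, adjusted p = 0.0516). Its KO replicate 2 lay only just above its WT replicate 3. Mrpl36 (0.39, adjusted p = 0.0512), Mrpl45, which ties the tunnel exit to the inner membrane (0.34, adjusted p = 0.0513), and Mrpl3 (0.39, adjusted p = 0.0531) also lay just outside. The rest of these 11 were Mrpl34, Mrpl47, Mrpl22, Mrpl40, Mrpl57, Mrps18a and Mrps18c.

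Some large subunit genes had differences near 0. Mrpl32, whose precursor is cut by the m-AAA protease before it joins the ribosome, stood at 1819, 2998 and 2199 in WT and at 2377, 2389 and 2387 in KO. Its WT values spanned the KO values on both sides (0.06, SE 0.17, adjusted p = 0.845), and its sign turned under 3 alternatives. Mrpl58, a peptidyl-tRNA hydrolase built into the large subunit that can free stalled chains, stood at 1208, 1095 and 1574 in WT and 1686, 1253 and 1369 in KO, with overlap (0.16, SE 0.18, adjusted p = 0.576). Mrpl49 and Mrpl33 had differences of 0.02 and 0.04, which fell below 0 with scaling to totals.

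Mrpl23, next to the exit tunnel, was the member with the lowest difference. It stood at 3032, 3011 and 3439 in WT and at 2833, 2788 and 2790.4 in KO, so all KO values lay below all WT values by a small step (-0.17, SE 0.09, adjusted p = 0.237). It was called lower with scaling to totals (-0.31, adjusted p = 0.0467) and under no other alternative. A pseudogene is named for Mrpl23, as for Mrpl48 and Mrps36, and the treatment of reads shared with it is not known here. The other Mrpl genes below 0 were Mrpl14, Mrpl48, Mrpl52 and Mrpl53, none called. Mrpl53 had the lowest level of all members (136, 191 and 202 against 179, 86.5 and 243), and 88.0% of its exonic bases are shared with other genes.

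**Figure D3:**
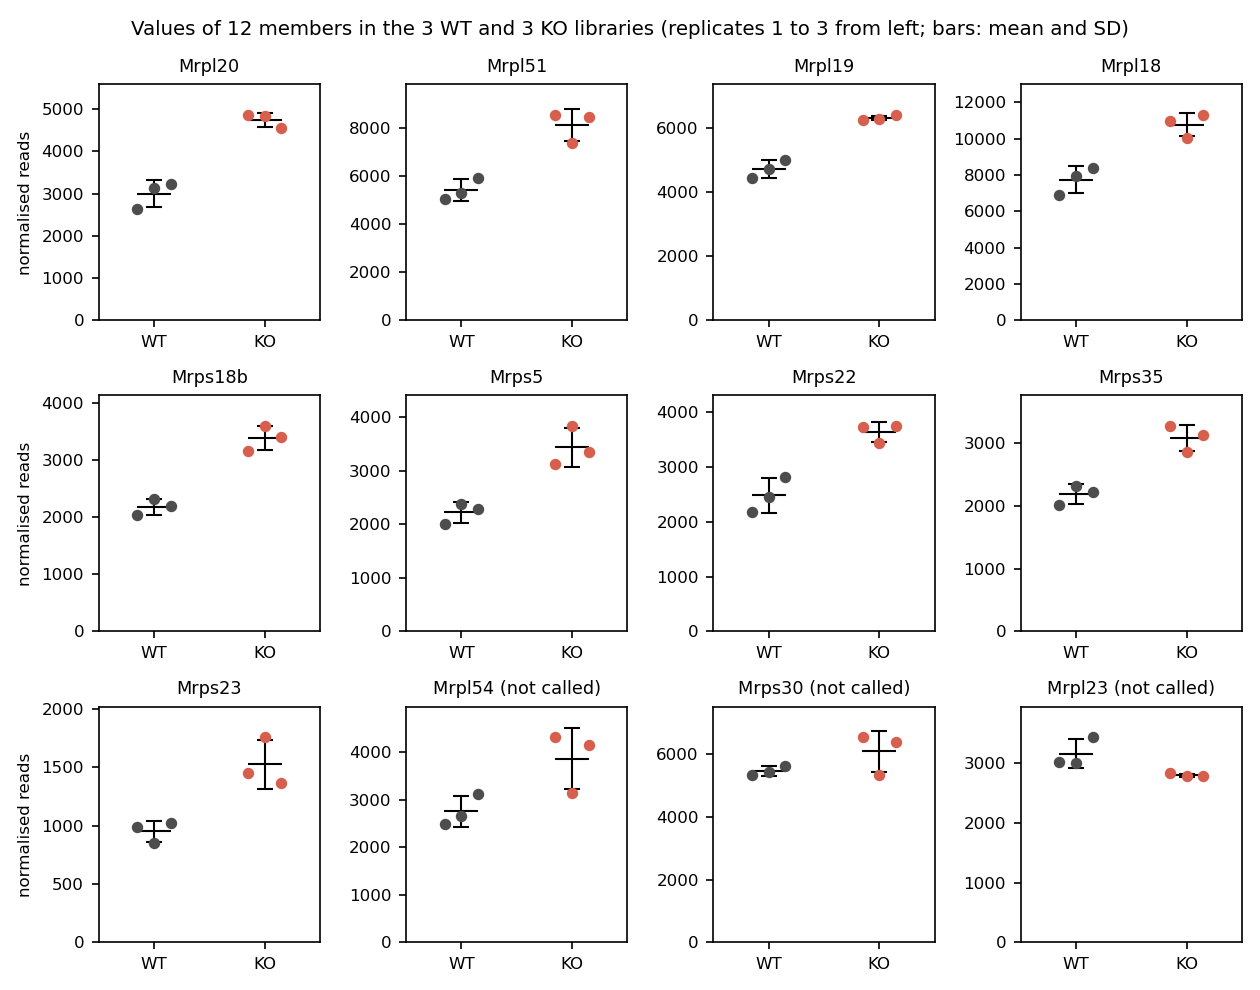
Normalised reads of 12 members in each library, with replicates 1 to 3 from left to right in each group and bars for the mean and SD (n = 3); each axis starts at 0. In the 9 called genes all KO points lie above all WT points; Mrpl54 does so narrowly, Mrps30 overlaps, and Mrpl23 lies the other way.

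Among small subunit genes, Mrps18b had the smallest p. It encodes 1 of 3 mitochondrial relatives of bacterial S18 and lies at chr17:35910379-35916389 on the minus strand (ENSMUSG00000024436.16). It stood at 2036, 2320 and 2198 normalised reads in WT and at 3167, 3592 and 3399.6 in KO. The groups were far apart, with KO at 155% of WT (0.63, SE 0.10, adjusted p = 0.00445; 4.62e-06 to 0.031 over the alternatives). Of its exonic bases, 30.5% overlap Gm16279 on the opposite strand, and it was not stated that counting used strand, so reads of the pair cannot be told apart.

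The S18 relatives have different places in the ribosome. Mrps18b and Mrps18c sit in the small subunit, and Mrps18a sits in the large subunit despite its name. Mrps18c stood at 2731, 2972 and 3239.7 in WT and 4274, 3401 and 3847 in KO (0.36, SE 0.12, adjusted p = 0.0595). Mrps18a stood at 2836, 2913 and 3790.4 in WT and 4472, 3827 and 4183 in KO (0.40, SE 0.13, adjusted p = 0.0665). In both, all KO values lay above all WT values, Mrps18a by the narrower step. Neither was called, and whether the 3 paralogs differ in response was not tested.

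Mrps5, a protein with a bacterial homologue near the message entry site (ENSMUSG00000027374.12, chr2:127587222-127606829, plus strand), stood at 2007, 2370.4 and 2283 in WT and 3123, 3825 and 3351 in KO (0.63, SE 0.12, adjusted p = 0.008). Mrps23, which has no bacterial counterpart (ENSMUSG00000023723.17, chr11:88204388-88211507, plus strand), stood at 988, 848 and 1019 in WT and 1451, 1756 and 1362 in KO (0.67, SE 0.14, adjusted p = 0.0134). KO was 155% and 160% of WT, with no overlap in either gene. With Mrps18b, these were the 3 Mrps genes called higher under every alternative.

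Mrps22 stood at 2181, 2448 and 2807 in WT and at 3732, 3428 and 3739 in KO (0.56, SE 0.11, adjusted p = 0.0122). Mrps35 stood at 2007, 2320 and 2212 in WT and at 3266, 2856 and 3124 in KO (0.50, SE 0.10, adjusted p = 0.0123). Both are proteins of mitochondrial ribosomes only, and in both the groups were separate. Mrps7, a homologue of the bacterial protein that nucleates assembly of the subunit's head, stood at 4660, 4675 and 4709 in WT and at 6265, 5842 and 5984 in KO (0.36, SE 0.08, adjusted p = 0.0133). Its WT values lay very close to each other. These 3 calls did not stand when KO replicate 3 or the intensity trend was left out, and that of Mrps7 also with scaling to totals (adjusted p = 0.0771).

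The other called Mrps genes were Mrps24, Mrps26, Mrps34, Mrps12, Mrps2 and Mrps10, with log2 fold changes from 0.33 in Mrps10 to 0.51 in Mrps34. Mrps12, which lines the decoding centre, stood at 2424, 2220.1 and 2467 in WT and 3153, 2815 and 3381 in KO (0.39, SE 0.11, adjusted p = 0.0323). Mrps26, shown above with its overlapping NRF1 motifs, stood at 2766, 3286 and 3431 in WT and at 4643, 3923 and 4696 in KO (0.49, SE 0.12, adjusted p = 0.0238). Groups were separate in all 6, and their calls were lost in 6 to 12 alternatives, Mrps10 in the most. Mrps34 shares 77.8% of its exonic bases with Nme3 and Mapk8ip3, so its value may hold their reads.

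Of the uncalled Mrps genes, Mrps30 stood at 5334, 5445 and 5636 in WT and at 6549, 5348 and 6413 in KO. Like Mrps18a it is part of the large subunit, and its KO replicate 2 lay among the WT values (0.15, SE 0.10, adjusted p = 0.326). Mrps36, now known as a component of the oxoglutarate dehydrogenase complex and not of the ribosome, stood at 1784, 2015 and 1820.4 in WT and 2042, 1997 and 2316 in KO, with overlap (0.18, SE 0.11, adjusted p = 0.293). Only Mrps33 and Mrps6 were below 0 among the Mrps genes (-0.08 and -0.02), neither of them called.

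Sorted by place in the known structure and not by symbol, the large subunit had 51 members, of which 17 were called higher (median 0.32), and the small subunit 26, of which 12 were called (median 0.32). Mrps36 was left out of this sorting. Members with a bacterial homologue numbered 46, of which 18 were called (median 0.33), and mitochondria-specific members 31, of which 11 were called (median 0.28). These classes follow the uniform names of ribosomal proteins. Of the S18 relatives, Mrps18b (mS40) and Mrps18a (mL66) thus count as mitochondria-specific and Mrps18c (bS18m) as a bacterial homologue. In the small subunit 6 of 10 mitochondria-specific and 6 of 16 bacterial-type members were called (medians 0.49 and 0.26). In the large subunit the counts were 5 of 21 and 12 of 30 (medians 0.25 and 0.36). These are descriptions of small sets, and no difference between them was tested.

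Level varied much more between members than between groups. Per kilobase of exon, for the 69 members with an annotated exon length, the WT mean ranged from 223 normalised reads in Mrpl53 to 5537 in Mrpl18. Mrpl36 (4039.8), Mrps28 (3988) and Mrpl12 (3563) followed Mrpl18. Exon length is that of all annotated exons together, so a gene with a long rare exon reads low.

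Some members start head to head with a neighbour on the opposite strand. With starts at most 1000 bases apart, or overlapping by at most 300 bases, 23 members had such a tested partner that was no member. Pairs with a longer overlap, such as Mrps11 and Mrpl46, were not counted. Of the partners, 4 were called higher (Eme1, Psma2, Fau and Apba3), 2 lower (Pnpla7 and Zfp189) and 17 not, and their median difference was 0.22. Over all genes tested, 10.3% were called higher and 13% lower. Among the partners of the 8 called members 1 was called: Mrpl41 was higher (0.52) while Pnpla7, 935 bases away, was lower (-0.62, adjusted p = 0.00555). Conversely, Fau, a cytosolic ribosomal protein precursor gene 59 bases from Mrpl49, was higher (0.61, adjusted p = 0.0139) while Mrpl49 differed by 0.02, and Psma2, a proteasome subunit gene 75 bases from Mrpl32, was higher (0.38, adjusted p = 0.0145). Sars2, the mitochondrial seryl-tRNA synthetase gene 172 bases from Mrps12, differed by 0.34 (adjusted p = 0.131). Other pairs had like differences, such as Mrpl54 and Apba3 (0.48 and 0.61) and Mrpl36 and Ndufs6 (0.39 and 0.40). So did Mrps18c and Helq (0.36 and 0.35) and Mrps34 and Eme2 (0.51 and 0.37). Besides Mrpl41, signs were opposite in the pairs of Mrpl2, Mrpl30, Mrpl37, Mrpl44, Mrpl50, Mrps5 and Mrps7. Whether the genes of a pair differ in response was not tested.

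Proteins that build and serve the mitochondrial ribosome were followed in separate lists. Of 5 ribosome subunits with other names, 1 was called higher, Aurkaip1 (2409.5, 2228 and 2337 against 3284, 2775 and 3219; 0.41, adjusted p = 0.0251), whose call was lost in 7 alternatives, 1 of them scaling to totals (adjusted p = 0.113). Of the others, Gadd45gip1, Ptcd3 and Dap3 differed by 0.17, 0.15 and 0.10. Of 31 assembly factors, 6 were called higher and 2 lower, with a median of 0.25 (3 and 2 with scaling to totals, 2 and 1 without KO replicate 3). The 6 and 2 are 19.4% and 6.5% of the list, against 10.3% and 13% of all genes tested. Afg3l2, a subunit of the m-AAA protease that cuts the Mrpl32 precursor, stood at 4814, 5469 and 5005 in WT and 8291, 7444 and 7797 in KO (0.62, SE 0.09, adjusted p = 0.00304), while Mrpl32 itself differed by 0.06. C1qbp (0.55, adjusted p = 0.00411) and the RNA granule protein Grsf1 (0.45, adjusted p = 0.0158) were higher. Mrm1, which methylates the large ribosomal RNA, was lower (1792, 1987 and 2021 against 1324, 1359.6 and 1211; -0.57, SE 0.11, adjusted p = 0.00881). Named after their values were seen, Rcc1l, Mpv17l2 and Gtpbp10 were the other 3 called higher and Mettl15, a methyltransferase of the small ribosomal RNA, was the other called lower (-0.51, adjusted p = 0.0259). Calls of these 4 were lost in 4 to 11 alternatives, while those of Afg3l2, C1qbp and Mrm1 held in all 19.

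Among 16 tested translation factors, 2 were called higher (12.5%, against 10.3% of all genes tested), with a median of 0.18. Gfm1, the elongation factor that moves the ribosome along the message, had the largest rise of these lists, at 3091.5, 3286 and 3115 in WT and 6749, 5877 and 6092 in KO (0.98, SE 0.09, adjusted p = 0.000794). Tsfm, which recharges the other elongation factor, Tufm, was higher as well (2323, 2506.5 and 2630.4 against 3729.6, 3595 and 4104; 0.61, SE 0.10, adjusted p = 0.00468). Lrpprc (0.36, adjusted p = 0.0506) and Oxa1l (0.27, adjusted p = 0.0900) were not called. Of 20 mitochondrial tRNA synthetase and tRNA amidation genes, 2 were higher (10%, the background again being 10.3%), Yars2 (0.63, adjusted p = 0.00492) and Iars2 (0.61, adjusted p = 0.00663), with a median of 0.10. Of 11 genes that copy or transcribe mitochondrial DNA, 2 were lower, Mgme1 (-0.43, adjusted p = 0.0122) and Mterf2 (-0.75, adjusted p = 0.0337), with a median of 0.01 (13% of all genes tested were called lower). The call of Mgme1 was lost in 2 alternatives, dropping the intensity trend or KO replicate 3. That of Mterf2 was lost in 8, among them quantile normalization (-0.46, adjusted p = 0.157) and leaving out any library but WT replicate 2. Scaling to totals lowered the list medians by 0.14, which turned those of the tRNA synthetase and mitochondrial DNA lists below 0 (-0.04 and -0.13).

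Nuclear regulators of mitochondrial genes did not move one way: of 12, 1 was called higher and 3 lower, with a median of -0.20 (-0.34 with scaling to totals, -0.05 with library quality weights, -0.09 without WT replicate 1). The 1 and 3 are 8.3% and 25% of the list, against 10.3% higher and 13% lower over all genes tested. Gabpa, the DNA-binding subunit of the ETS factor NRF2, stood at 3358, 3613 and 3138.5 in WT and at 4504.5, 4974 and 5116 in KO (0.53, SE 0.10, adjusted p = 0.0076). Myc, which binds the E-box, fell from 11199, 13330 and 14591 to 10039, 9130.3 and 8985 (-0.47, SE 0.11, adjusted p = 0.0208; lost in 5 alternatives), and Mycn from 2670.4, 2154 and 3038 to 259, 421 and 265 (-3.07, SE 0.22, adjusted p = 0.000428). The coactivator gene Ppargc1a was near absent, at 77.2, 55.2 and 46.4 in WT and at 0, 0 and 17.3 in KO, and its call was lost in 9 alternatives. Named after their values were seen, Nrf1 and Yy1 differed by -0.12 (adjusted p = 0.489) and 0.05 (adjusted p = 0.801).

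**Figure D4:**
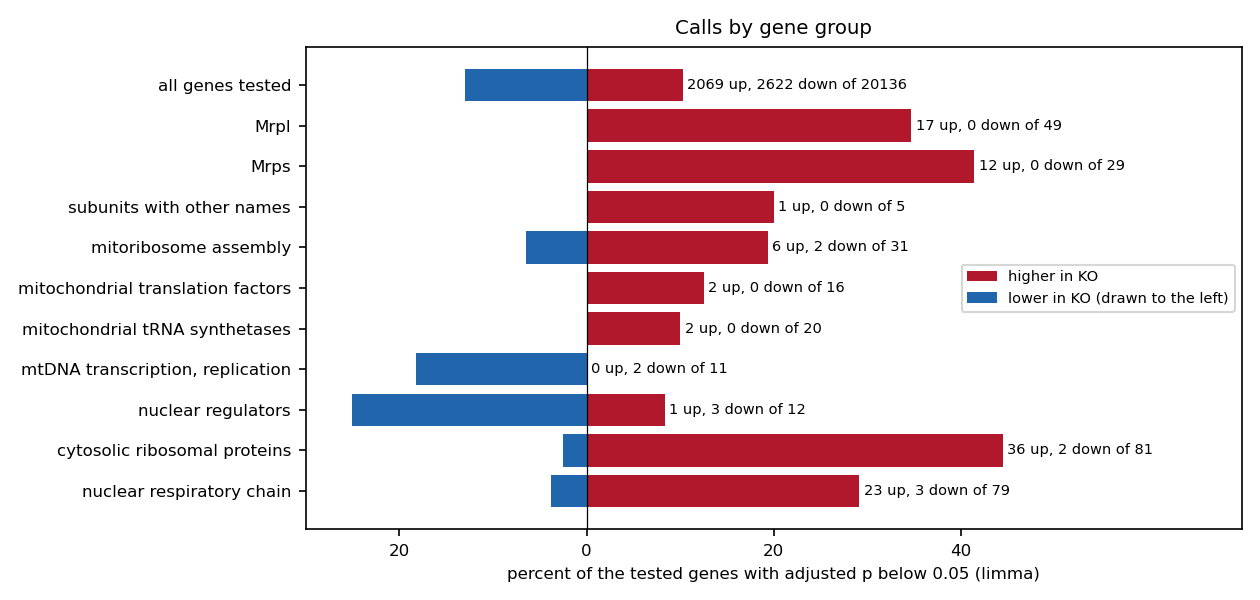
Percent of the tested genes of each list called higher (red, right) or lower (blue, left) in KO by limma at an adjusted p below 0.05, with the counts beside each bar. The Mrpl, Mrps, cytosolic ribosomal protein and nuclear respiratory chain bars reach farthest right, and the nuclear regulators reach farthest left.

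Genes of cytosolic ribosomal proteins and nuclear genes of the respiratory chain were set beside the members. Of 81 cytosolic ribosomal protein genes, 36 were called higher and 2 lower, with a median of 0.31. Of 79 nuclear respiratory chain genes, 23 were called higher and 3 lower, with a median of 0.20. Their median deviations from the WT means ran -0.09, -0.03 and 0.13 in WT and 0.35, 0.23 and 0.32 in KO for the first list, and -0.09, -0.04 and 0.14 in WT and 0.29, 0.11 and 0.25 in KO for the other. As in the members, WT replicate 3 was the highest of WT and KO replicate 2 the lowest of KO, and in the respiratory chain list these 2 crossed. As shares, 44.4% of the cytosolic and 29.1% of the respiratory chain genes were called higher, against 10.3% of all genes tested. Called lower were 2.5% and 3.8%, against 13%. A difference between these lists and the members was not tested.

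Marker genes of cell types moved with the groups (over all genes tested, 10.3% were called higher and 13% lower). Of 10 granulocyte-monocyte progenitor markers 9 were called higher, their summed level being 1342010 to 1579750 in WT and 2040820 to 2242870 in KO. The number called was 6 with scaling to totals, 6 with quantile normalization, 5 without the intensity trend and 6 without KO replicate 3. All 10 stem cell markers were detected, and 9 were lower (22645 to 28114 against 3810 to 6209.7), as were 9 of 10 erythroid (53353 to 61449.5 against 12370.2 to 13994) and 8 of 8 megakaryocyte markers (32374 to 34489 against 5585 to 8227). Of 5 tested B lineage markers 2 were lower (31203 to 53998 against 5763 to 7063), with Ebf1 and Pax5 at 0 in all libraries. Of 7 tested T and NK markers 4 were lower and 1 higher, with a median of -2.91. Their summed level was nonetheless higher in KO (34411 to 35709.7 against 41739 to 44002), since Nkg7 (0.32), the only one of them above 0 and named after its values were seen, makes up most of the sum. Of 8 macrophage markers 3 were lower (96993 to 122665 against 70083 to 86805). Of 9 neutrophil markers 3 were higher and 1 lower, with summed levels that overlapped (83574 to 142052 against 120625 to 267408). The part of cell makeup in the members' differences was not tested, and in bulk RNA a change in the share of a cell type cannot be told apart from a change in RNA per cell.

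**Figure D5:**
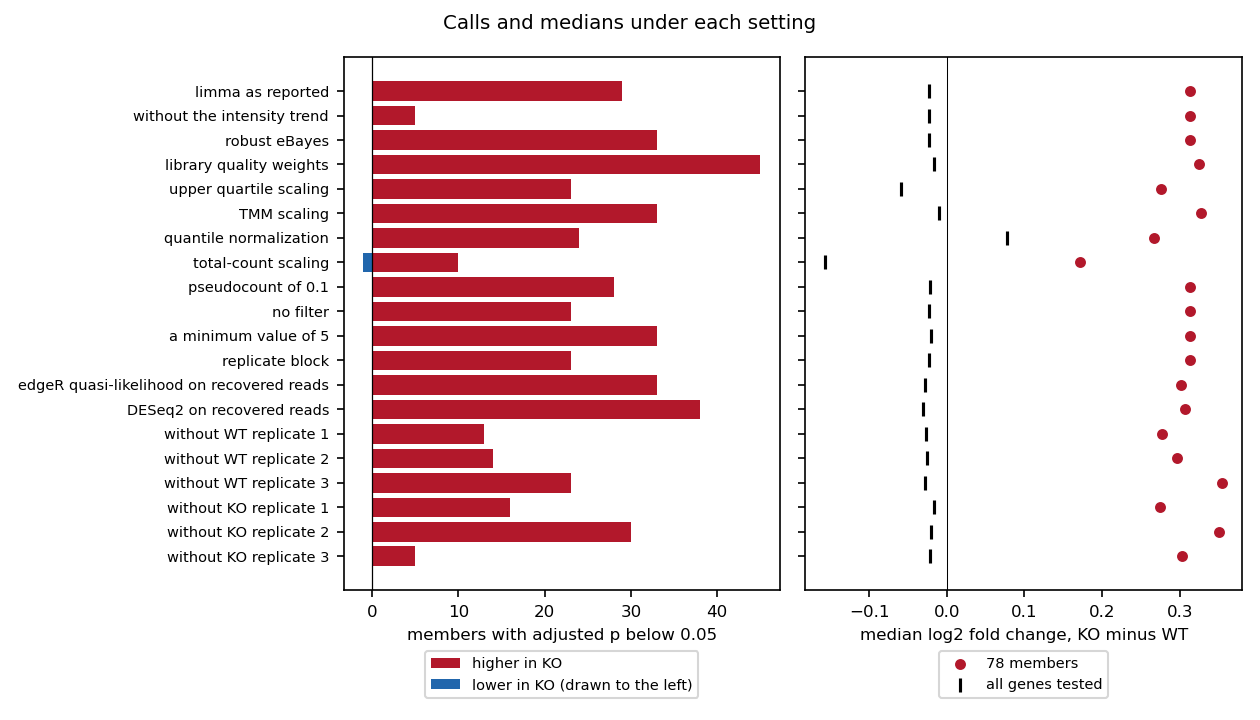
Left, number of the 78 members called higher (red) or lower (blue) in KO under each analysis setting. Right, median log2 fold change of the members (red points) and of all genes tested (black marks). Counts run from 5 to 45, while the member median stays between 0.17 and 0.35 and right of the median of all genes in each setting. The share of all genes tested called higher runs from 4.86% to 15.9% over these settings.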

How the data were processed

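Poly(A) RNA was sequenced, with a VAHTS mRNA-seq v2 library kit (per the labels). The submitters' processing notes name HISAT2, StringTie, mm10 and mm8, with no roles; the counting, its use of strand and its treatment of shared reads are not stated there. The 49035 identifiers shared with GENCODE M21, version included, have identical ends there, and coordinates are given as GRCm38. The authors deposited a signal per gene that was a whole multiple of 1 step per library within 0.01 read for 100% of values, thus read counts divided by a size factor and by no gene length. KO was compared with WT, 3 libraries each, with limma 3.58.1 in R 4.3.3 (intensity trend) on log2(value + 1). Genes reaching a value of 1 in 3 or more libraries were tested. Fold changes on this scale understate changes of low genes. P-values were two-sided, adjusted by Benjamini-Hochberg over 20136 genes, with a threshold of 0.05. The 19 alternatives included edgeR 4.0.16 and DESeq2 1.42.0 on recovered reads. The limma fit was also run on simulated counts in which some genes were raised by known folds and none lowered. The share of these genes recovered is not given here. Those counts were scaled by the factors used to draw them, so the choice of scaling was not tested.

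The members and gene lists were chosen with earlier results of these data known. All 6 values are given for Ppp2ca, the 6 smallest p of each subunit among called members, the largest uncalled difference of each subunit and 8 members of known particular role; other members were picked after their values were seen. The motifs and the pairs of neighbouring genes were chosen after seeing the data. Of each other list up to 4 genes with the smallest p were named. Of 167 listed symbols, 1 (Mtrfr) was not matched. Other genes' exons overlap 7 members on the same strand and 25 on the opposite one. Each pair of libraries differed beyond sampling noise, so each counted once. PCR reads without molecular identifiers are not independent molecules.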

Additional observations from a re-analysis of the deposited data

How the results depend on the processing

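Against 29 members called higher as reported (17 Mrpl and 12 Mrps), the number called of all 78 was 5 (2 and 3) without the intensity trend, 45 (30 Mrpl) with library quality weights and 10 (5 and 5) with scaling to totals, which also called 1 Mrpl gene lower. Leaving out 1 library each gave 5 to 30 members, 2 to 19 Mrpl genes and 3 to 11 Mrps genes, and 2617 to 4356 calls over all genes, against 4691. Without the trend 2821 genes were called. Of all genes tested, 5.32% were called higher without the trend, 15.9% with library quality weights and 6.64% with scaling to totals. Leaving out 1 library each, that share was 4.86% to 8.98%, the lowest without KO replicate 3. The other settings gave 23 to 38 members: 23 with upper quartile scaling, 24 with quantile normalization, 33 with TMM, 33 with edgeR and 38 with DESeq2. In that order, 9.22%, 10.4%, 10.9%, 12.4% and 12.2% of all genes tested were called higher. Replicate numbers did not pair the libraries (correlations of same-numbered deviations -0.02, -0.01 and -0.02). With the replicate block 23 members were called, 22 of them among the 29, and 3862 genes. Signs differed between alternatives for 19 of the 78 members, all uncalled, and 57 were above 0 with scaling to totals, against 71. Among genes described with all values or named from the lists, signs turned for Mrpl32 (-0.0163 with weights, -0.0836 with scaling to totals, and -0.1065 to 0.2537 leaving out 1 library, the lowest without WT replicate 1), Mrpl53 (0.2668 with weights, 0.2156 with quantile normalization, and -0.4769 to 0.2643 leaving out 1 library, the highest without KO replicate 2), Dap3 (-0.0416) and Ssbp1 (-0.0007), the last 2 with scaling to totals; none was called either way. The cause of these changes was not tested. The smallest difference called among the members was 0.33, so an uncalled member is not shown to be unchanged.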
